A study of Mus musculus with 6 samples.

Results

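MERVL and the mammalian apparent LTR retrotransposons (MaLRs) are mouse retroelements of the ERV3 class, and 9 of the 363 repeat families counted in these testis libraries belong to them by name. The families were taken as those whose name starts with MERVL, ERVL, MT followed by a digit or a letter from A to E, or ORR1, whatever their counts. The rule found MERVL, MERVL_LTR, MTA_Mm_LTR, MTB_Mm_LTR, ORR1A0, ORR1B1, ORR1B2, ORR1C1 and ORR1C2. No family is listed under a name starting with MT2 or ERVL, so the MERVL side of the comparison holds 2 families and the MaLR side 7. Testis RNA of wild-type mice and of mice homozygous for Spocd1ΔSPIN1 (given as dSpin1 in the labels) was sequenced at postnatal day 20 (P20), with 3 libraries of each genotype and 1 testis for each library. Mice of both genotypes are of a mixed B6CBAF1/Crl and C57BL/6N background. The Spocd1ΔSPIN1 allele encodes SPOCD1 with alanine substitutions in the stretch that binds the chromatin reader SPIN1, is a germline allele made by gene editing, and was designed to separate this binding from the other functions of SPOCD1. The labels number the libraries of each genotype but do not say that each testis came from a different mouse, so p-values measure the spread between these libraries.

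SPOCD1 links the piRNA pathway, which recognises nascent transposon transcripts in fetal male germ cells, to the machinery that methylates their DNA. LINE1 and IAP elements are its best-known targets. MERVL is an endogenous retrovirus whose internal part codes for the proteins of a retroelement, flanked by long terminal repeats (LTRs, named MT2_Mm in genome annotations) that hold its promoter, and it is known for its burst of transcription in the early embryo at the activation of the zygotic genome. MaLRs code for no reverse transcriptase of their own and are thought to have been copied by the enzymes of MERVL relatives. They include the MT families, whose LTRs serve as promoters in the oocyte, and the older ORR1 families, and most of their copies in the genome are LTRs that stand alone or lie within other transcripts. The comparison asked whether these ERV3 families differ between the genotypes, and whether MERVL differs from the MaLRs in this.

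The deposited table holds raw read counts for each family, with a length for each family's sequence. The 363 families together had 416517, 369598 and 499166 counts in wild type and 842018, 1013224 and 918487 in Spocd1ΔSPIN1 testes. The 9 ERV3 families had 31752, 28238 and 40080 of these counts in wild type and 31341, 35912 and 31049 in Spocd1ΔSPIN1 testes. Thus the raw counts of the ERV3 families overlapped between the genotypes, whereas the totals of the table did not. LINE1 families (names starting with L1 or Lx) held 188703, 157124 and 234063 counts in wild type and 509414, 694220 and 639548 in Spocd1ΔSPIN1 testes. Spocd1ΔSPIN1 replicate 1 stood apart from the other libraries of its genotype. The chi-square per degree of freedom over the families tested was 413 between it and replicate 2 and 352 between it and replicate 3, against 14.4 between replicates 2 and 3 and 10.3, 11.8 and 14.5 between wild-type libraries. LINE1 families held 60.5% of its counts, against 68.5% and 69.6% in the other Spocd1ΔSPIN1 libraries. Without it, 0 of the 9 ERV3 families passed the test described next in edgeR, against 28 of all 297 families then tested. The median log2 fold change without this library was -0.078 for the MERVL pair, -0.11 for the MaLR families and -0.066 for all families. With it, these medians were -0.083, -0.10 and -0.039. The number of reads sequenced for each library was not used here, and the table lists no genes. Neither the genotype, the testis identity nor the mix of cell types could therefore be checked, and in whole testis fewer cells of a type and less RNA per cell cannot be told apart. Levels are given as CPM (counts relative to library size) after TMM scaling, the trimmed mean of M-values, which assumes that most families do not differ. Under TMM the median log2 fold change of the 292 families tested was -0.039, and with library totals as the scale it was -1.05. All 9 ERV3 families passed the filter on low counts and were tested.

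In wild-type testes the ERV3 families spanned a wide range of levels. Per kb of listed length, MTA_Mm_LTR had the highest level at 42379 ± 1775 CPM per kb (mean ± SD, n = 3 libraries), and ranked 9 of all 363 families. ORR1A0 followed at 17439 ± 181 CPM per kb and MTB_Mm_LTR at 10322 ± 153 CPM per kb. MERVL_LTR stood at 7001 ± 348 CPM per kb and the internal sequence, MERVL, at 4127 ± 176 CPM per kb. The older ORR1 families were lower, with 2980 ± 72.1 CPM per kb for ORR1B1, 805 ± 8.17 for ORR1B2, 103 ± 30.2 for ORR1C1 and 45.9 ± 10.4 for ORR1C2. Spocd1ΔSPIN1 testes showed this order too, and in neither genotype did the libraries of neighbouring families in the order overlap. A level sums over all copies of a family in the genome, and the number of copies was not taken into account.

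**Figure D1:**
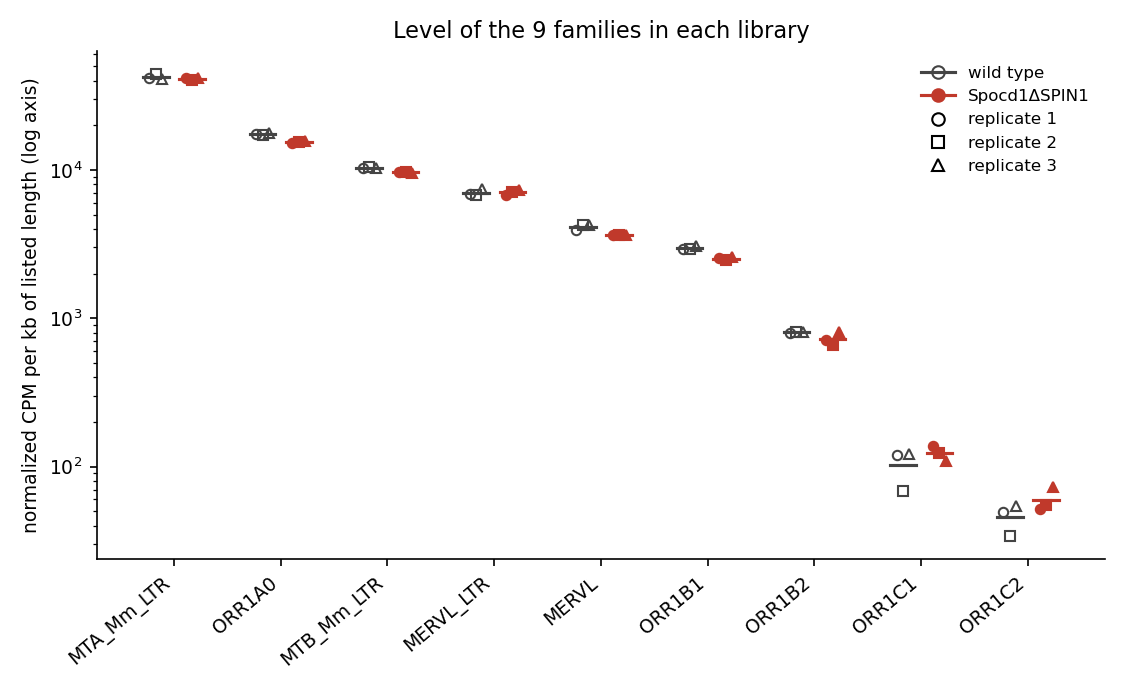
Level of each of the 9 ERV3 families in each library, as TMM-normalized CPM per kb of listed length on a log axis. Symbols are the replicates, open for wild type and filled for Spocd1ΔSPIN1, and horizontal lines are the means of 3 libraries. MTA_Mm_LTR is highest and ORR1C2 lowest in both genotypes, and the genotypes lie close together within each family.

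MERVL, the internal sequence of the retrovirus with a listed length of 5485 bases, took more counts than any other of the 9 families. Its normalized level was 21522, 23170 and 23217 CPM in wild type and 20026, 20102 and 19844 CPM in Spocd1ΔSPIN1 testes. All 3 Spocd1ΔSPIN1 values lay below all wild-type values. The means were 22636 ± 965 and 19991 ± 132 CPM (SD, n = 3 each). The log2 fold change was -0.18 (standard error 0.087, Bonferroni-adjusted p = 1 and unadjusted p = 0.0746 from edgeR's quasi-likelihood test over all families). The 95% interval of the fold ran from 0.768 to 1.02, so a rise above 1.02-fold lies outside it under TMM. At 11718 to 16926 reads, counting error was at most 0.924%.

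MERVL_LTR, the promoter-bearing repeat of the same retrovirus (493 bases), had 3368, 3338 and 3649 CPM in wild type and 3322, 3521 and 3602 CPM in Spocd1ΔSPIN1 testes. These values overlapped, with means of 3451 ± 172 and 3481 ± 144 CPM (SD, n = 3 each). The log2 fold change was 0.012 (SE 0.069, Bonferroni-adjusted p = 1 in edgeR), with an interval of the fold from 0.902 to 1.13. This sign was not stable. The value was -0.0056 when the 9 families were left out of the TMM factors, -0.0017 without wild-type replicate 1, -0.011 without wild-type replicate 2, and -1.004 with library totals as the scale, but 0.045 in DESeq2 and 0.058 without wild-type replicate 3.

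The pair of MT families of the MaLRs, MTA_Mm_LTR and MTB_Mm_LTR, likewise did not pass the test. MTA_Mm_LTR had 16479, 17586 and 16282 CPM in wild type and 16446, 15998 and 16549 CPM in Spocd1ΔSPIN1 testes. The groups overlapped, and the log2 fold change was -0.039 (standard error 0.084, adjusted p = 1 in edgeR), with an interval of the fold from 0.850 to 1.11. With TMM factors from families not named L1 or Lx it was 0.0089, in DESeq2 it was -0.0052, and with each library left out in turn it was between -0.057 and -0.0042 (the latter without wild-type replicate 2). MTB_Mm_LTR had 4169, 4273 and 4162 CPM in wild type and 3921, 3939 and 3880 CPM in Spocd1ΔSPIN1 testes. Here the groups did not overlap, but the difference was small, with -0.10 as the log2 value (SE 0.061, Bonferroni-adjusted p = 1 in edgeR) and an interval of the fold from 0.845 to 1.03. With the TMM factors from families not named L1 or Lx the value was -0.055.

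Among the 5 ORR1 families, the 3 with higher counts were slightly lower in Spocd1ΔSPIN1 testes and the 2 with the fewest reads slightly higher under TMM (but lower with library totals as the scale), and under TMM none passed the threshold. ORR1B1 had 1157, 1159 and 1207 CPM in wild type and 996, 970 and 1016 CPM in Spocd1ΔSPIN1 testes. The groups did not overlap. Its log2 fold change of -0.24 (standard error 0.062, unadjusted p = 0.00477) gave a Bonferroni-adjusted p of 1 in edgeR, and 0.0197 by the Benjamini-Hochberg method over all families. ORR1B1 is thus the only one of the 9 that the latter adjustment would call, against 31.5% of all 292 families tested. ORR1A0 had 6038, 5969 and 6094 CPM in wild type and 5217, 5350 and 5459 CPM in Spocd1ΔSPIN1 testes. These groups did not overlap either, and the log2 fold change was -0.18 (standard error 0.067, unadjusted p = 0.0309 and Bonferroni-adjusted p = 1 in edgeR). The intervals of the fold were 0.766 to 0.934 for ORR1B1 and 0.795 to 0.986 for ORR1A0, not adjusted for the number of families.

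ORR1B2 had 293, 299 and 295 CPM in wild type and 261, 242 and 296 CPM in Spocd1ΔSPIN1 testes. Only Spocd1ΔSPIN1 replicate 3 reached the wild-type values, counting error was between 6.82% and 8.14% at 215 and 151 reads, and the log2 fold change was -0.15 (standard error 0.094, adjusted p = 1 in edgeR), or -0.087 without Spocd1ΔSPIN1 replicate 2. ORR1C1 was counted with 29, 14 and 36 reads in wild type and 35, 36 and 27 reads in Spocd1ΔSPIN1 testes, or 48.5, 27.7 and 49.4 against 56.1, 50.3 and 44.1 CPM. ORR1C2 was counted with 12, 7 and 16 reads in wild type and 13, 16 and 18 in Spocd1ΔSPIN1 testes, or 20.1, 13.8 and 21.9 against 20.9, 22.4 and 29.4 CPM. In both ORR1C families the genotypes overlapped and wild-type replicate 2, the library with the smallest total, was the lowest. Their log2 fold changes of 0.23 and 0.34 had standard errors of 0.23 and 0.32, the latter from counting error (adjusted p = 1 each in edgeR), and counting error alone reached 26.7% at 14 reads and 37.8% at 7 reads. Single libraries moved these values in either direction. With each library left out in turn, ORR1C1 lay between 0.036 (without wild-type replicate 2) and 0.38 (without wild-type replicate 3), with 0.14 without Spocd1ΔSPIN1 replicate 1. ORR1C2 lay between 0.19 (without wild-type replicate 2) and 0.49 (without wild-type replicate 3), with 0.21 without Spocd1ΔSPIN1 replicate 3. At this depth, the intervals of the fold, from 0.806 to 1.70 for ORR1C1 and from 0.752 to 2.12 for ORR1C2, are wider than those of the other 7 families.

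Under TMM, 0 of the 9 families passed the Bonferroni threshold of 0.05 in edgeR, against 8.22% of the 292 families tested, which is 24 families (15 without wild-type replicate 2 and 14 without wild-type replicate 3, with 0 of the 9 in either case). With DESeq2's Wald test, 0 of the 9 and 47 of all families passed. At an unadjusted p under 0.05 in edgeR there were 2, ORR1A0 and ORR1B1, against 42.5% of all families tested. In 4 of the 9 the libraries of the genotypes did not overlap (MERVL, MTB_Mm_LTR, ORR1A0 and ORR1B1), against 45.9% of all families tested, so this count is near the background. Their log2 fold changes lay between -0.24 and 0.34, whereas over the whole table they ran from -3.07 to 3.88. The median was -0.083 for the MERVL pair and -0.10 for the 7 MaLR families, beside -0.039 for all families. Without wild-type replicate 3 these medians were -0.049, -0.11 and -0.063, so whether the MERVL pair lay below or above the median of all families depended on this library. In DESeq2 the medians were -0.050, -0.068 and -0.0051, and with TMM factors from families not named L1 or Lx they were -0.037, -0.055 and 0.0084. Standard errors were small for most of the 9, with a median of 0.084 against 0.15 for all families tested.

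**Figure D2:**
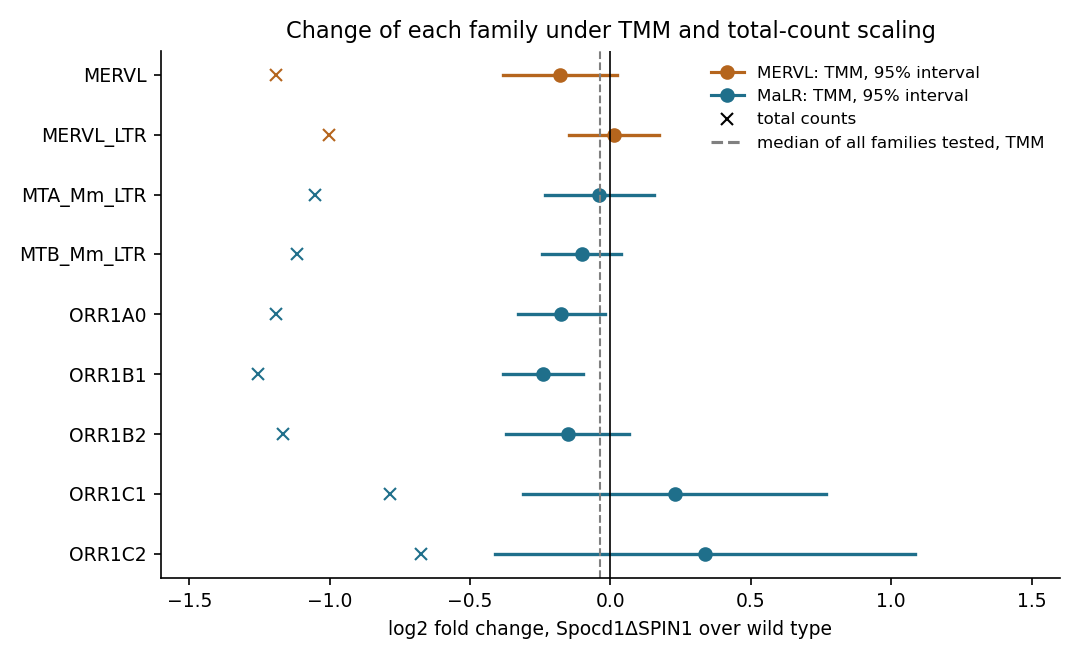
Log2 fold change of each ERV3 family in Spocd1ΔSPIN1 over wild-type testes. Dots with lines are values under TMM with unadjusted 95% intervals, crosses are values with library totals as the scale, and the dashed line is the median of the 292 families tested under TMM. Values under TMM lie between -0.24 and 0.34, and library totals move all 9 families below 0.

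The size of these values, and for 4 families their direction, rest on the scaling. When library totals replaced TMM, all 9 families had lower values in Spocd1ΔSPIN1 testes, including MERVL_LTR, ORR1C1 and ORR1C2, whose values under TMM were above 0. The log2 fold changes then ran from -1.26 for ORR1B1 to -0.67 for ORR1C2, and 7 of the 9 passed the Bonferroni threshold in edgeR, as did 172 of all 292 families. ORR1C1 and ORR1C2 did not pass. MTA_Mm_LTR is the other family whose direction turned, at 0.0089 with the TMM factors from families not named L1 or Lx. A change of scale moves all families by nearly the same amount, so values measured from the median of all families tested give only a family's place among the others. Measured in this way under TMM, the log2 fold change was -0.14 for MERVL, 0.051 for MERVL_LTR, -0.20 for ORR1B1 and 0.38 for ORR1C2, and MTA_Mm_LTR lay at the median.

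To compare MERVL with the MaLRs without any scaling between libraries, their counts were set against each other within each library. The log2 ratio of the summed MERVL and MERVL_LTR counts to the summed counts of the 7 MaLR families was -0.18, -0.15 and -0.065 in wild type and -0.21, -0.17 and -0.22 in Spocd1ΔSPIN1 testes. The groups overlapped. The means of -0.13 ± 0.059 and -0.20 ± 0.025 (SD, n = 3 each) differed by -0.067 (exact two-sided permutation test, p = 0.2, and 0.222 after Benjamini-Hochberg adjustment over the 10 within-library measures). Without wild-type replicate 3 the difference was -0.035. A mean of log2 counts over families gives the families used equal weight. It took only families with at least 10 counts in every library, so ORR1C2 was left out. Computed in this way, the difference was -0.015.

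Within MERVL, the ratio of internal to LTR counts did not overlap between the genotypes, although the test did not pass the threshold, which 3 and 3 libraries cannot reach. The log2 ratio of MERVL to MERVL_LTR counts was 2.68, 2.80 and 2.67 in wild type and 2.59, 2.51 and 2.46 in Spocd1ΔSPIN1 testes. All Spocd1ΔSPIN1 values lay below all wild-type values, and the means of 2.71 ± 0.071 and 2.52 ± 0.065 differed by -0.19 (p = 0.1 in an exact two-sided permutation test, which is the lowest value possible with 3 and 3 libraries, adjusted p = 0.125). With each library left out in turn the difference was between -0.23 (without Spocd1ΔSPIN1 replicate 1) and -0.15. Among the MaLRs, the log2 ratio of the MT to the ORR1 counts was 1.45, 1.55 and 1.41 in wild type and 1.64, 1.59 and 1.58 in Spocd1ΔSPIN1 testes. The groups again did not overlap, and the difference was 0.13, or 0.11 without Spocd1ΔSPIN1 replicate 1 (exact two-sided permutation test, p = 0.1, adjusted p = 0.125). The summed counts are mostly those of MTA_Mm_LTR and ORR1A0. As a mean of log2 counts over families, again without ORR1C2, the difference was -0.0037. In that mean ORR1C1, with 14 to 36 reads in a library and a log2 fold change of 0.23 under TMM, weighs as much as ORR1A0. The size of the difference thus depends on how much weight a family with few reads is given.

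**Figure D3:**
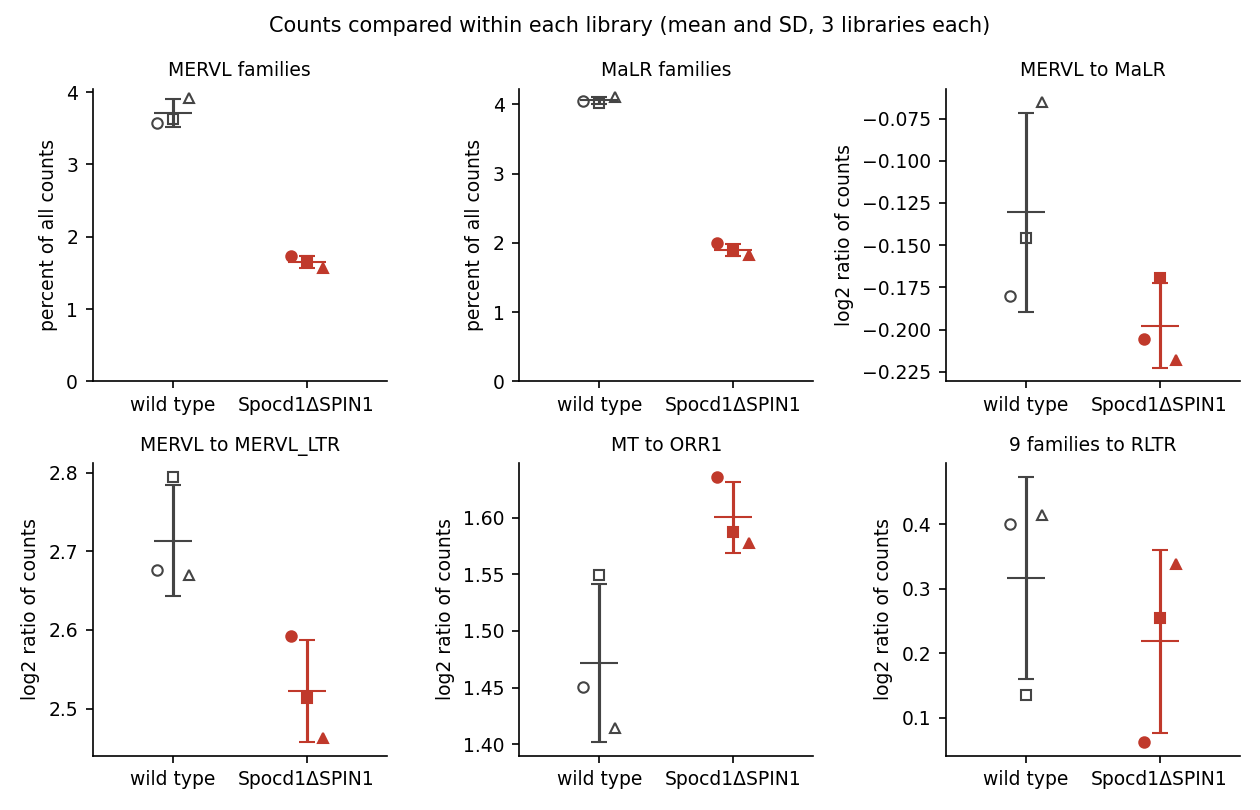
Counts of ERV3 families compared within each library. The upper left and upper middle panels give the percent of all counts (axes from 0), and the other panels the log2 ratio of summed counts (axes not from 0). Symbols are replicates, and bars are the mean and SD of 3 libraries. The shares of counts and the MERVL to MERVL_LTR and MT to ORR1 ratios do not overlap between the genotypes, whereas the MERVL to MaLR ratio and the ratio to the RLTR families do.

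Most ERV3 counts came from a few families in both genotypes. MERVL took 41.4% ± 0.85 of the counts of the 9 families in wild type and 39.7% ± 0.48 in Spocd1ΔSPIN1 testes. MTA_Mm_LTR took 30.7% ± 0.98 and 32.4% ± 0.46, and ORR1A0 11.1% ± 0.34 and 10.6% ± 0.20 (SD, n = 3 each). These shares were not tested.

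As a percentage of the counts in the table, which is not a percentage of the reads sequenced, the ERV3 families did not overlap between the genotypes. The MERVL pair held 3.57%, 3.63% and 3.92% of all counts in wild type and 1.73%, 1.67% and 1.56% in Spocd1ΔSPIN1 testes, and the MaLR families held 4.05%, 4.01% and 4.11% against 1.99%, 1.88% and 1.82%. All Spocd1ΔSPIN1 values lay below all wild-type values in either case, with differences of -2.06 and -2.16 percentage points, or -2.09 and -2.21 without Spocd1ΔSPIN1 replicate 1 (exact two-sided permutation test, p = 0.1 each, adjusted p = 0.125). LINE1 counts are part of the same total, and their share was 45.3%, 42.5% and 46.9% in wild type and 60.5%, 68.5% and 69.6% in Spocd1ΔSPIN1 testes. Of the counts outside LINE1, the MERVL pair held 6.74% ± 0.57 in wild type and 4.94% ± 0.49 in Spocd1ΔSPIN1 testes, and the MaLR families 7.37% ± 0.38 and 5.66% ± 0.53 (SD, n = 3 each, with p = 0.1 in exact two-sided permutation tests, adjusted p = 0.125). Without Spocd1ΔSPIN1 replicate 1 the differences in these shares were -1.52 and -1.40 percentage points, against -1.80 and -1.71 with it. MMERVK10C, an ERVK provirus, took 2.52%, 2.28% and 2.46% of the counts outside LINE1 in wild type and 15.6%, 10.04% and 11.3% in Spocd1ΔSPIN1 testes. With MMERVK10C left out of the denominator, the shares were 6.91% ± 0.59 and 5.62% ± 0.38 for the MERVL pair and 7.55% ± 0.39 and 6.45% ± 0.41 for the MaLR families (SD, n = 3 each, with p = 0.1 in exact two-sided permutation tests). Spocd1ΔSPIN1 replicate 1 had the highest MMERVK10C share. How far the LINE1 and MMERVK10C counts account for the ERV3 shares was not tested beyond these denominators.

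**Figure D4:**
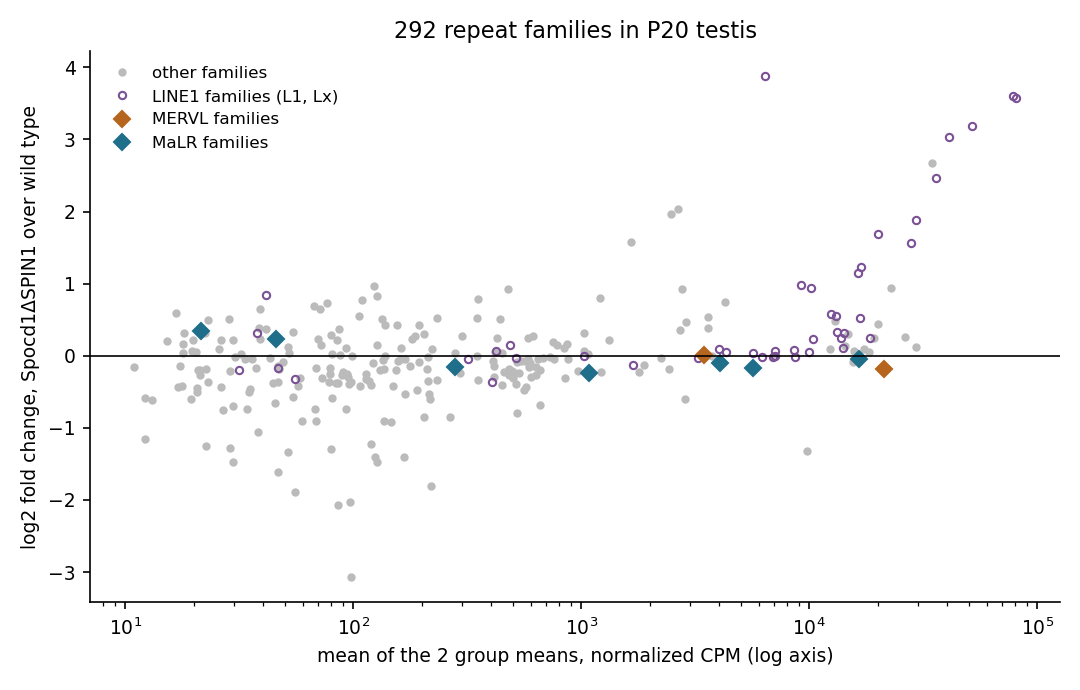
Log2 fold change of the 292 families tested under TMM against their mean normalized CPM (log axis), with MERVL and MaLR families as diamonds and LINE1 families as open circles. The diamonds lie between -0.24 and 0.34 over their own range of levels, which does not cover the highest levels plotted, whereas LINE1 families reach 3.88.

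The ERV3 families were finally set beside other repeat groups of the table, defined by name. Of 46 LINE1 families tested, 10 passed the threshold under TMM and all 10 were higher in Spocd1ΔSPIN1 testes, whereas with library totals 30 passed, 3 higher and 27 lower. Of 32 families with IAP in their name 4 passed under TMM, 3 higher and 1 lower, and with library totals 13 passed, 0 higher and 13 lower. Of 109 other families named RLTR, mostly rodent retroviral LTRs but also 2 internal sequences (RLTR4I_MM and RLTR6I_MM), 7 passed under TMM, 1 higher and 6 lower, and with library totals 69 passed, 0 higher and 69 lower. The median log2 fold change was 0.19 for LINE1, 0.31 for IAP and -0.20 for RLTR families under TMM, beside -0.10 for the 9 ERV3 families, and with library totals these medians were -0.83, -0.70, -1.21 and -1.12. Within libraries, the log2 ratio of all ERV3 to all LINE1 counts was -2.57, -2.48 and -2.55 in wild type and -4.02, -4.27 and -4.36 in Spocd1ΔSPIN1 testes, a difference of -1.69 (-1.79 without Spocd1ΔSPIN1 replicate 1). The log2 ratio of ERV3 to IAP counts was -0.35, -0.51 and -0.35 in wild type and -0.85, -0.62 and -0.53 in Spocd1ΔSPIN1 testes, a difference of -0.26 (-0.17 without Spocd1ΔSPIN1 replicate 1). Neither ratio overlapped between the genotypes (exact two-sided permutation test, p = 0.1 each, adjusted p = 0.125). The log2 ratio of ERV3 to RLTR counts was 0.40, 0.14 and 0.41 in wild type and 0.062, 0.26 and 0.34 in Spocd1ΔSPIN1 testes, and these overlapped (difference -0.098, or -0.020 without Spocd1ΔSPIN1 replicate 1, exact two-sided permutation test, p = 0.5, adjusted p = 0.5). The 2 internal sequences held 41.4%, 47.9% and 42.6% of the RLTR counts in wild type and 40.3%, 40.9% and 38.6% in Spocd1ΔSPIN1 testes, so this ratio is not one to LTRs alone. With each library left out in turn its difference was between -0.19 (without wild-type replicate 2) and -0.020.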

How the data were processed

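The authors deposited raw read counts for each repeat family in each library, not normalized and not pooled. RNA was depleted of ribosomal RNA and made into directional libraries. The submitters' processing notes name cutadapt 1.18, Bowtie2 2.4.2 and mm10. The reference sequences, the counting of reads that match several families and the strand setting are not given in the sources used here, so counts of similar families, such as MERVL and MERVL_LTR or the ORR1 families, may share reads. A row named for the aligner, with 0 in every library, was left out. Columns were matched to samples by name.

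All 363 families entered edgeR 4.0.16 (R 4.3.3), with filterByExpr by genotype (292 families kept, including all 9 ERV3 families), TMM factors from these (1.37 to 1.46 in wild type, 0.67 to 0.74 in Spocd1ΔSPIN1) and the quasi-likelihood test without covariates. P-values were adjusted by Bonferroni, which the study names, over the 292 families, with 0.05 as the threshold. DESeq2 1.42.0, the tool of the study, was an alternative. Standard errors were derived from the F statistic, or from counting error where that was larger (82 families, among them ORR1C2), and intervals are 95%. Exact permutation tests were made in scipy 1.17.1 for 7 planned within-library measures and 3 (ratios to LINE1, IAP and RLTR counts) added after seeing the data. The tests with MMERVK10C left out of the denominator were also added after seeing the data. Their p-values are unadjusted and lie outside these 10 measures. All 9 families are named in the text. The families, lists and tests were chosen with earlier results of these data known. Replicates of a genotype all differed by more than sampling noise, Spocd1ΔSPIN1 replicate 1 by far the most, and none was left out of the main results. Intervals and counting errors do not cover PCR duplicates. The fits were tested on simulated data in which as many families were raised as lowered. The scaling was therefore not tested under a change mostly in one direction.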

Additional observations from a re-analysis of the deposited data

How the results depend on the processing

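The count of ERV3 families called was 0 under all alternatives run but 2. With total counts it was 7 (2 MERVL and 5 MaLR families), and with Benjamini-Hochberg adjustment 1, a MaLR family. Total counts gave medians of -1.10 for the MERVL pair, -1.12 for MaLR families and -1.05 for all families, and reversed MERVL_LTR (-1.004), ORR1C1 (-0.79) and ORR1C2 (-0.67). TMM factors from families not named L1 or Lx gave medians of -0.037, -0.055 and 0.0084 for MERVL, MaLR and all families and reversed MTA_Mm_LTR (0.0089). DESeq2 gave -0.050, -0.068 and -0.0051. TMM factors from families outside the 9 reversed MERVL_LTR (-0.0056), as did leaving out wild-type replicate 1 or wild-type replicate 2, but not wild-type replicate 3. The range for MERVL_LTR over all 6 libraries left out in turn was -0.011 to 0.058. As means of log2 counts over families with at least 10 counts in every library, so without ORR1C2, the differences were -0.015 for MERVL to MaLR and -0.0037 for MT to ORR1. Without MMERVK10C in the denominator, an alternative chosen after seeing the data, the MaLR share outside LINE1 differed by -1.11 percentage points.

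Over the whole table, 24 families were called, against 47 with DESeq2, 172 with total counts, 92 with Benjamini-Hochberg and 14 with the replicate block, and 14 to 28 with each library left out (15 without wild-type replicate 2, 14 without wild-type replicate 3). Same-numbered libraries did not vary together (correlations of 0.083, 0.008 and -0.14), and the block called 0 of the 9. Adding ERVL names could not be run, since no such family is listed, and with at least 10 counts required in every library ORR1C2 gave no value. The cause of these shifts was not tested. The ratio of the 9 families to IAP counts differed by -0.33 to -0.17 and that to RLTR counts by -0.19 to -0.020 with each library left out, checks chosen after seeing the data. Counts were lowest for the ORR1C families (7 to 36 reads in a library) and next for ORR1B2 (151 to 215).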
